A study of Mus musculus with 2 samples.

Results

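Fascia-type fibroblasts with Dpt and Clec3b were chosen by their own transcripts, in a single-cell RNA-seq data set of tdTomato-positive (tdT+) cells from E14 mouse embryos. A cell was taken when Dpt, Clec3b and Cd55 together gave at least 5 unique molecular identifiers (UMIs, 1 per captured transcript), Col3a1 gave at least 5, Krt5, Krt14 and Krt15 together fewer than 10, Tnmd and Scx together fewer than 5, and Pecam1 and Cdh5 none. This left 1000 of 22086 cells that had at least 1000 UMIs and at most 10% mitochondrial UMIs, out of 27766 deposited barcodes. The rule used the measured values of these genes, so their levels below are a description.

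Fascia is the loose collagenous sheet that wraps muscles and lies under the skin. Its fibroblasts are known for dermatopontin (Dpt, a small protein that binds decorin and collagen), tetranectin (Clec3b, a plasminogen-binding lectin), Cd55 (which speeds the decay of complement convertases) and the microfibril protein Mfap5. In adult tissues, cells with Pi16, Dpp4 and Ly6a within this population are described as progenitors of other fibroblasts.

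The embryos had been decapitated and eviscerated, and all sorted cells carried Myf5-Cre, a Rosa26-LSL-tdT reporter and 1 or 2 floxed alleles of Srsf2, a splicing factor. Cre is driven by Myf5, a gene of muscle precursors, so the reporter marks only cells with a history of Cre activity, and the number of embryos pooled per library is not given in the sources used here. There was 1 library per genotype, so no test between genotypes was possible, all intervals cover counting error only, and a difference between the libraries cannot be told apart from a difference between 2 preparations. Library A, of 15268 barcodes, is titled SRSF2f/f/Myf5-Cre/tdT, the knockout, while the study's quality page with that number of cells is headed Het/tdT. Library B, of 12498 barcodes, is titled SRSF2f/w/Myf5-Cre/tdT, the heterozygote, while its quality page is headed MKO/tdT. Because these labels go against each other, the libraries are called A and B throughout, and ratios are B over A.

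Srsf2 (chromosome 11, 116849901 to 116853094, minus strand, GRCm38) was lower in library B. The fascia-type cells held it at 191 CPM (UMIs scaled to 1000000 UMIs of the same cells) in library A and 118 CPM in library B, a log2 ratio of -0.70 (95% interval -0.85 to -0.55). Other Col3a1 cells held 226 and 152 CPM. The lower value stands in the library that the quality page calls MKO/tdT and goes against the deposited titles. The libraries differed in other cells too, with 342 endothelial-type cells (Pecam1 and Cdh5 together at least 5 UMIs) of 12144 in library A and 914 of 9942 in library B, and with lower muscle transcripts in library B, given below for the fascia-type cells. No genotype is assigned from these values. Which exons are deleted is not stated in the text of the sources used here, and a 3′ tag outside the deleted part would not report the deletion.

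Library A contributed 776 fascia-type cells and library B 224. They made up 6.39% of the cells of library A (95% exact Clopper-Pearson interval 5.96 to 6.84) and 2.25% of those of library B (1.97 to 2.56), a share 2.84-fold higher in library A. Tendon-type cells (Tnmd and Scx together at least 5 UMIs) made up 3.78% and 2.51%. The next 2 populations met the same Col3a1, keratin, tendon and endothelial criteria and exclude the fascia-type cells. Cells with at least 2 UMIs of Twist2, a dermal transcription factor, made up 7.92% and 5.32% of all cells kept, and those with at least 2 UMIs of Osr1 and Meox2, transcription factors of muscle connective tissue, but fewer than 2 of Twist2 made up 5.17% and 3.57%. Each of these populations held a higher share in library A, by 1.45 times for the Osr1/Meox2 cells and 1.49 times for the Twist2 cells, and the fascia-type cells differed most. Among cells with at least 5 Col3a1 UMIs, the fascia-type share was 11.04% (10.3 to 11.8) in library A and 5.47% (4.80 to 6.22) in library B, 2.02-fold apart. On that base the intervals of the tendon-type shares, 6.53% and 6.11%, overlapped, as did those of the Twist2 shares, 13.7% and 12.9%, and of the Osr1/Meox2 shares, 8.94% and 8.68%. This depends on leaving the fascia-type cells out of the last 2 populations. With those that met the same Twist2 or Osr1/Meox2 criterion counted in, an alternative added after seeing the data, the Twist2 shares of Col3a1 cells were 19.3% (18.4 to 20.3) and 16.7% (15.6 to 17.9), and the Osr1/Meox2 shares 11.2% (10.4 to 11.9) and 9.26% (8.39 to 10.2), with intervals that did not overlap.

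**Figure D1:**
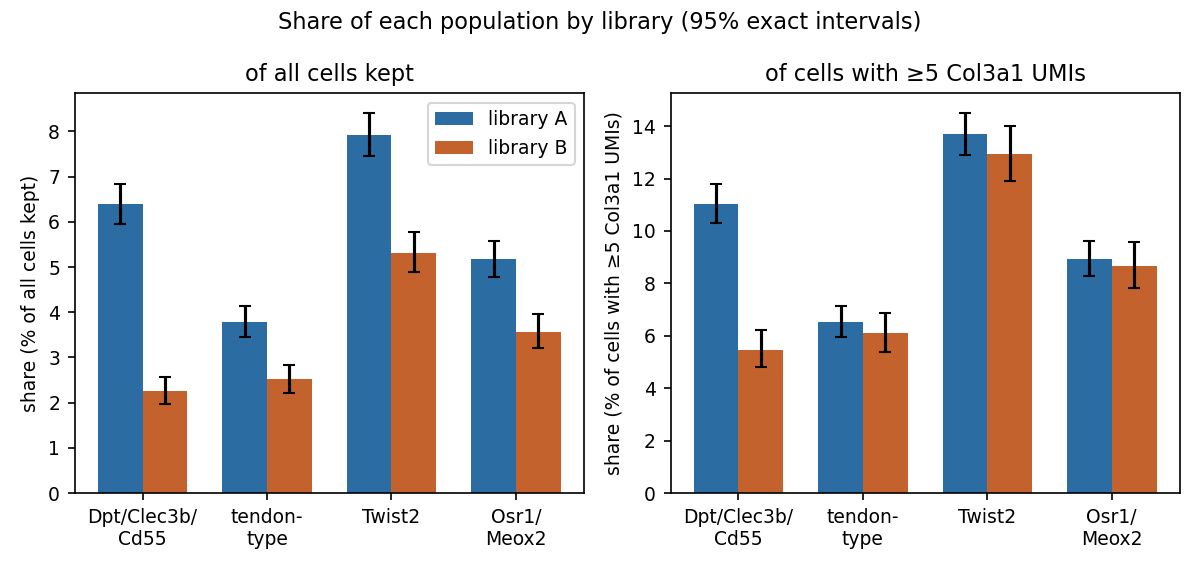
Share of 4 connective tissue populations in library A (blue) and library B (orange), as a percent of all cells kept (left) and of cells with at least 5 Col3a1 UMIs (right), with 95% exact intervals. The Dpt/Clec3b/Cd55 cells make up 11.04% and 5.47% of Col3a1 cells, while the intervals of the other 3 populations overlap between the libraries; the Twist2 and Osr1/Meox2 cells are drawn without the Dpt/Clec3b/Cd55 cells.

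The fascia-type cells were sequenced at a median of 12487.5 UMIs per cell in library A and 15462 in library B, against 10296 and 9568.5 in the other Col3a1 cells. A threshold on raw UMIs favours deep cells. When each cell was thinned to 5000 UMIs before the rule, the shares were 2.99% and 1.06%, a log2 ratio of -1.50 like that at full depth. Over the 11 alternatives tried, this ratio lay between -1.78 and -1.01. The sum of the 3 genes had no gap at the threshold. At a sum of 4, just outside, there were 151 cells in library A and 43 in library B, and at a sum of 5, just inside, 126 and 40. Cells at 4 held Mfap5, which the rule did not use, at 85.1 and 57.2 CPM, and cells at 5 held it at 136 and 43.9 CPM. Of all barcodes, 74 occurred in both libraries, 4 of them fascia-type cells in 1 library and none in both.

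**Figure D2:**
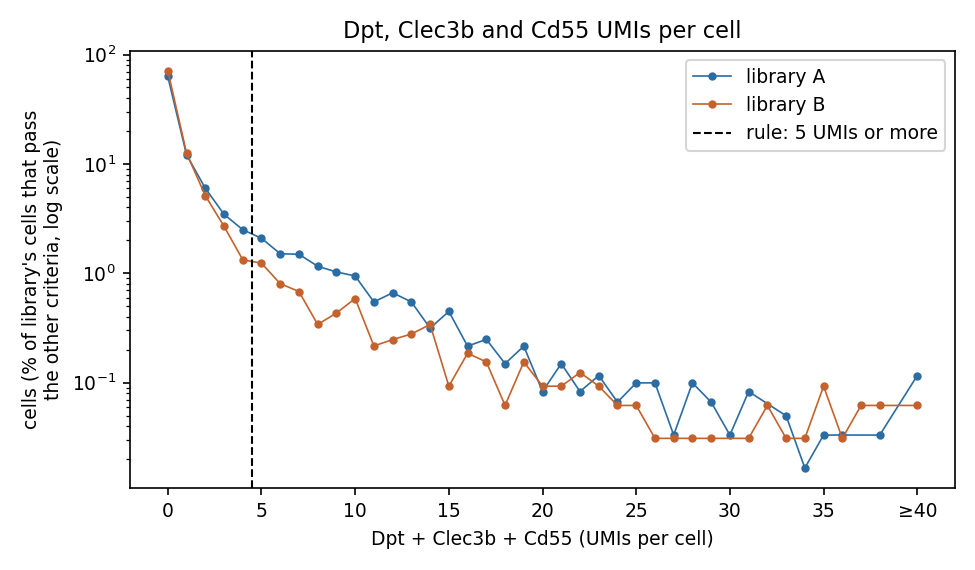
Share of cells (log axis) by their summed Dpt, Clec3b and Cd55 UMIs, among cells that pass the other criteria, for library A (blue) and library B (orange); the last point holds cells with 40 UMIs or more, and sums with no cell have no point. The curves show no gap at the dashed line that marks the 5-UMI rule, where library A holds 126 cells and library B 40.

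Dpt carried most of the rule. It gave 64.4% of the summed UMIs of the 3 genes in library A and 56.6% in library B, and 73.2% and 71.0% of the cells would have been taken on Dpt alone. Dpt (chromosome 1, 164796644 to 164824266, plus strand) ranged from 0 to 37 UMIs per cell with a median of 6 in library A, and from 0 to 27 with a median of 6 in library B. Clec3b (chromosome 9, 123150946 to 123157432, plus strand) ranged from 0 to 20 and from 0 to 14, with a median of 1 in both. Cd55 (chromosome 1, 130439027 to 130462744, minus strand) had a median of 0 and a highest value of 25 in library A, and a median of 1 and a highest value of 32 in library B. All 3 genes were found together in 27.8% of the cells of library A and 35.7% of those of library B, and 27.6% and 24.6% held neither Clec3b nor Cd55. Clec3b was found in 55.7% and 54.0% of the cells and Cd55 in 47.0% and 60.3%, beside 93.9% and 93.3% for Dpt, so Dpt was the gene that nearly all of them shared. In CPM, Dpt stood at 505 and 419, Clec3b at 157 and 98.2, and Cd55 at 122 and 224. Over all fascia-type cells Clec3b was thus lower and Cd55 higher in library B, which did not hold in every subcluster given below.

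Of the 2 label markers that the rule did not use, Mfap5 (chromosome 6, 122505845 to 122529290, plus strand) stood at 231 CPM in library A and 162 CPM in library B, against 26.4 and 19.5 CPM in the other Col3a1 cells. Cd248 (endosialin, a stromal surface protein; chromosome 19, 5068078 to 5070682, plus strand) stood at 199 and 182 CPM against 42.2 and 33.5. After thinning to 2000 UMIs, Mfap5 was found in 29.1% of the fascia-type cells of library A (25.9 to 32.5) and 22.8% of those of library B (17.4 to 28.8). Its share was 4.20% and 3.09% in the other Col3a1 cells and 2.63% and 0.875% in endothelial-type cells, which should lack it. In erythroid-type cells it was 0 of 83 cells in library A, where the exact interval reaches 4.35%, and 1 of 100 in library B. At full depth 54.6% and 49.6% of the fascia-type cells held a UMI of Mfap5, and 50.4% and 41.5% held both Mfap5 and Cd248. Both markers were thus higher on average, and neither was found in every cell.

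Of 24 listed genes of fascia and of the Pi16 and Dpp4 progenitor state, 22 had at least 200 UMIs over both libraries. Of these, 16 were more than 2-fold higher in the fascia-type cells than in the other Col3a1 cells in both libraries, with 2 more than 2-fold lower. Over all 6978 genes tested, 2.59% were higher by this measure and 0.53% lower. The rule used the same contrast, so these counts describe the chosen cells and nothing is read from them. The median log2 ratio of the list was 1.962 in library A and 1.78 in library B, beside 0.02 and -0.06 over all genes. Dpp4, a membrane peptidase, stood at 29.2 and 29.4 CPM against 3.15 and 3.39 CPM in the other Col3a1 cells. Wnt2, a Wnt ligand, stood at 39.9 and 70.4 CPM against 2.90 and 4.02 CPM. Ccn3, a matricellular protein, stood at 144 and 225 CPM against 24.2 and 23.5 CPM, and Sema3c, a secreted semaphorin, at 224 and 236 CPM against 55.4 and 63.6 CPM. Pi16, a peptidase inhibitor, was low at 9.84 and 8.63 CPM against 0.527 and 0.712, and at full depth a UMI of it was found in 8.76% and 10.3% of the cells. Endothelial-type cells gave 2.92% and 1.75% for Pi16. Pcolce2, an enhancer of procollagen processing, went the other way at 16.6 and 8.63 CPM against 36.6 and 44.9, as did Smpd3, a sphingomyelinase of cartilage and bone, at 25.2 and 11.9 CPM against 136 and 103.

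**Figure D3:**
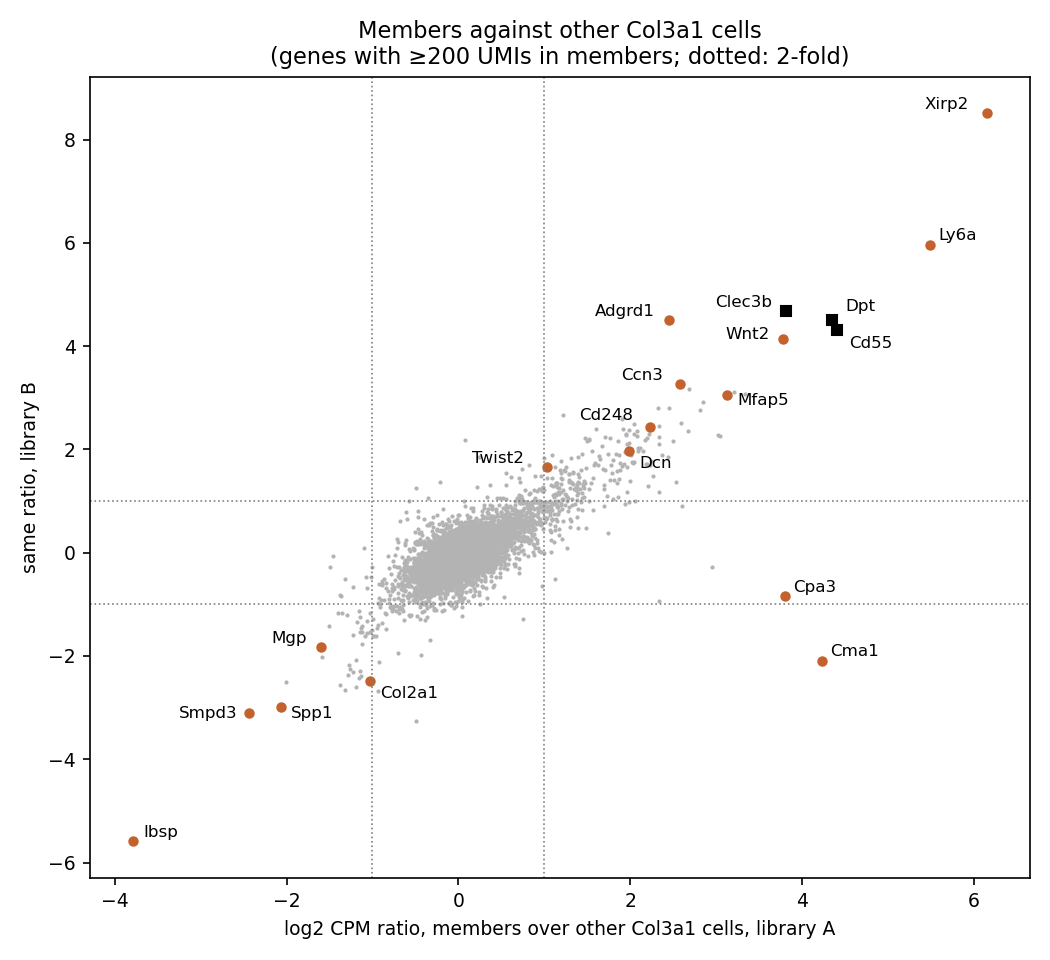
Each point is 1 of 6978 genes, with the log2 CPM ratio of fascia-type cells (members) over other Col3a1 cells in library A (x) and library B (y); squares are the rule genes and dotted lines mark 2-fold. Mfap5, Wnt2 and Ly6a lie high in both libraries, Ibsp and Smpd3 low in both, and the mast cell genes Cma1 and Cpa3 on opposite sides.

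By the same measure 181 genes were higher and 37 lower in both libraries. Ranked by the smaller ratio of both libraries, the first was Xirp2, a muscle actin-binding protein, at 12.1 and 41.5 CPM against 0.170 and 0.114 CPM, but 5 cells held 64.7% of its UMIs. Ly6a (Sca-1, a surface protein of progenitor cells) came next, at 15.4 and 76.6 CPM against 0.341 and 1.22 CPM. Cemip, which degrades hyaluronan, stood at 17.7 and 38.9 CPM against 1.75 and 4.59. Tek, the angiopoietin receptor of endothelial cells, stood at 23.5 and 18.3 CPM against 3.66 and 2.05, in cells that by the rule held no UMI of Pecam1 or Cdh5. Of the other endothelial markers, Kdr stood at 2.67 and 2.16 CPM, Emcn at 1.75 and 2.16 CPM and Cldn5 at 1.75 and 4.05 CPM. The potassium channel genes Kcnj8 (26.4 and 28.6 CPM against 5.24 and 5.21) and Abcc9 (20.6 and 22.4 against 8.77 and 7.38), which are also pericyte markers, were higher as well, while the pericyte gene Rgs5 was at 2.85 and 7.55 CPM against 10.5 and 14.6.

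Among the 37 genes lower in the fascia-type cells, Ibsp, bone sialoprotein, stood at 105 and 20.0 CPM against 1452 and 963 CPM, and 5 cells held 79.2% of its UMIs. Spp1, osteopontin, stood at 43.1 and 29.4 CPM against 181 and 234 CPM, and Mgp, matrix Gla protein, at 84.0 and 110 against 254 and 390. Of 5 chondrocyte genes tested, 4 were more than 2-fold lower in both libraries, Col2a1 at 592 and 262 CPM against 1209 and 1474. Among all 6978 genes the share lower by this measure was 0.53%. The summed chondrocyte list was 925 and 434 CPM against 1988 and 2472, higher in the comparison cells. The part of cartilage cells among the comparison cells in these ratios was not tested.

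Of 18 elastic fibre and microfibril genes tested, 6 were higher in both libraries and none lower, with list medians of 0.59 and 0.68 log2. By this measure 2.59% of all 6978 genes were higher and 0.53% lower. The rule used the same contrast, so the counts describe the chosen cells. The list summed to 3266 and 3491 CPM, against 1803 and 2057 CPM in the other Col3a1 cells and 3010 and 3162 CPM in tendon-type cells, so the tendon-type cells held a similar total. Fbn1, fibrillin-1, the backbone of microfibrils, stood at 361 and 362 CPM against 107 and 96.3 CPM. Efemp1, fibulin-3, stood at 75.0 and 106 against 10.7 and 15.7, and Lox, which cross-links collagen and elastin, at 247 and 334 against 107 and 123. Elastin itself (Eln) differed little, at 80.4 and 104 against 64.8 and 72.4. Of 19 collagens tested, 4 were higher and none lower, and Col3a1 among the 4 was part of the rule. Col5a3 stood at 36.7 and 35.1 against 6.09 and 6.18, and Col1a2 at 5239 and 5234 against 2247 and 2261. Dcn, decorin, the proteoglycan that dermatopontin binds, stood at 1721 and 1984 CPM against 434 and 507. Thbs1, thrombospondin-1, stood at 652 and 658 against 151 and 161.

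Compared with the populations most alike, the fascia-type cells differed by several genes. Mfap5 stood at 66.5 and 25.4 CPM in tendon-type cells, 27.8 and 13.8 in Twist2 cells, and 69.6 and 32.8 in Osr1/Meox2 cells, all below the fascia-type 231 and 162. Dpp4 stood at 2.27 and 4.33, 3.47 and 4.63, and 6.21 and 5.02 CPM in the same order. The Twist2 and Osr1/Meox2 cells had by choice fewer than 5 UMIs of Dpt, Clec3b and Cd55 together. Tendon-type cells had no such limit. Among cells that passed the other criteria, Mfap5 stood at 13.9 and 10.4 CPM at a sum of 0, and at 136 and 43.9 CPM at 5. The gaps to the Twist2 and Osr1/Meox2 cells thus describe how the cells were chosen, and nothing is read from them. The rule kept Tnmd and Scx low. Of 6 tendon genes tested, 2 were more than 2-fold lower than in the other Col3a1 cells in both libraries (Comp and Col11a1) and none higher. Thbs4 was at 24.0 and 11.1 CPM against 232 and 116 CPM in tendon-type cells, and Mkx, which did not reach 200 UMIs, at 2.57 and 3.24 against 22.0 and 13.5. Twist2 stood at 183 and 291 CPM, above the tendon-type cells (26.8 and 60.3) and below the Twist2 cells (452 and 379), which were chosen on that gene. Of all fascia-type cells, 51.2% in library A and 69.6% in library B held at least 2 Twist2 UMIs. Of 9 dermal genes tested, 3 were more than 2-fold higher than in the other Col3a1 cells in both libraries (Twist2, Tbx15 and Dkk2) and 3 lower (Trps1, Foxd1 and Ptch1), with list medians of 0.41 and 0.56 log2. For these tendon and dermal counts, the shares over all 6978 genes were 2.59% higher and 0.53% lower. Twist1, a related transcription factor, stood at 293 and 461 CPM against 222 and 313. Lef1, a Wnt effector that did not reach 200 UMIs, stood at 5.06 and 6.48 CPM against 45.9 and 42.3 CPM in Twist2 cells, and Crabp1, a retinoic acid binding protein, at 248 and 356 against 1637 and 1247. Osr1 stood at 69.8 and 52.6 CPM, near the 80.0 and 58.5 of the Osr1/Meox2 cells, which were chosen in part on it. Meox2, at 34.3 and 24.0 CPM, was far under their 189 and 198.

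Of 10 Wnt genes tested, 4 were higher in both libraries and none lower, with the secreted inhibitor Sfrp2 at 306 and 408 CPM against 116 and 149 CPM in the other Col3a1 cells, and the ligand Wnt11 at 24.9 and 32.6 against 11.5 and 15.4. Of 11 Tgf-beta and Bmp genes tested, 1 was higher, the activin antagonist Fst (follistatin), at 164 and 239 CPM against 44.0 and 74.3. Of 12 genes of the Igf axis, 2 were higher: Igfbp6, which binds Igf2, at 74.1 and 87.7 against 18.2 and 26.4, and the Notch-related Dlk1, at 2236 and 2700 against 979 and 923. Of 8 genes tested in a list of chemokines, other ligands and receptors, 4 were higher. Among them was Kitl, not a chemokine but the ligand that mast and germ cells need, at 156 and 136 against 36.5 and 33.5. The 3 complement genes tested were all higher; 1 is the rule gene Cd55, and the others were Serping1, the C1 inhibitor, at 45.6 and 52.3 against 13.3 and 17.9, and Clu, clusterin, at 81.4 and 84.2 against 19.7 and 25.04. Of 11 adipogenic genes tested, 1 was higher in both libraries: Pparg, the adipocyte regulator, stood at 16.6 and 8.63 CPM against 7.59 and 3.48 CPM. Adipoq was at 0.736 and 1.62 CPM and Plin1 had no UMI in the fascia-type cells, a count of 0 that allows up to 3 UMIs. Beside these list counts, 2.59% of all 6978 genes were higher by the same measure and 0.53% lower. The rule used the same contrast, so the counts describe the chosen cells and nothing is read from them.

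Some lists held no gene past 2-fold in both libraries, which at the shares over all genes of 2.59% and 0.53% says little about lists this short. Of 5 Hox genes tested, none passed 2-fold against the other Col3a1 cells in both libraries. Mki67, a gene of cycling cells, stood at 142 and 111 CPM against 169 and 82.1 CPM, and Cdkn1c, a cell cycle inhibitor, at 5328 and 5386 against 3791 and 2590. Of 13 cell cycle genes tested none passed 2-fold in both libraries. The same held for the 12 SR splicing factors tested, for 7 p53 target genes and for 4 limb position genes, while 2 of 15 immediate early and stress genes were higher, Atf3 at 1156 and 1968 against 538 and 911 and Ier3 at 414 and 911 against 188 and 356. Of the meningeal list only Zic1 could be tested, at 43.9 and 66.6 CPM against 51.8 and 62.5, and none of 7 mesothelial genes reached 200 UMIs, Wt1 among them at 3.86 and 2.16 CPM. Ddx3y, on the Y chromosome, stood at 153 and 138 CPM and Xist, from the inactive X, at 0.184 CPM in library A and without a UMI in library B.

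Clustering of the 1000 cells gave 7 subclusters, named here by number. Subcluster 1 held 264 cells. Its leading genes by fold were Xirp2 (62.3 CPM against 5.81 in the rest) and Hdc, a mast cell enzyme (76.0 against 9.89), of which 5 cells held 68.0% and 97.4% of the UMIs, and Srgn, of which 5 cells held 93.2%, was the fifth. Genes spread over more of its cells were Cd55 at 399 CPM, Mfap5 at 353, Cd248 at 347, Wnt2 at 124, Dpp4 at 75.8, Ly6a at 78.0 CPM. Pi16 stood at 21.3 CPM there and was found in 18.6% of the cells. Subcluster 2, of 186 cells, held the highest Clec3b, at 292 CPM, and Mfap5 at 396 CPM, but Cd55 at 75.6 CPM, and was led by Ebf2, a transcription factor of adipocyte precursors (165 CPM against 28.7 in the rest), Ren1, renin (105 against 19.1), Tnxb, tenascin-X (51.8 against 10.1) and Igf1 (663 against 168). Clec3b was high in both, at 215 CPM and in 71.2% of the cells of subcluster 1 and in 76.9% of those of subcluster 2, while Cd55 was lower in subcluster 2. Twist2 stood at 308 CPM in subcluster 1 and 46.7 CPM in subcluster 2.

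Subcluster 3, of 173 cells, went against the label. Dpt stood at 586 CPM there, as high as in subcluster 1, but Mfap5 at 12.2 CPM, Dpp4 at 4.51 CPM and Clec3b at 41.5 CPM. Mfap5 was lower there than in the other Col3a1 cells of either library. Its leading genes were Rspo1 (56.8 CPM against 12.1 in the rest), an activator of Wnt signalling, Wnt4 (141 against 32.7), the chemokine Cxcl14 (603 against 166) and Bcl11b, a transcription factor (63.1 against 15.8), and Twist2 stood at 343 and Crabp1 at 564 CPM. Subcluster 7, of 59 cells, held a like pattern, with Mfap5 at 16.1, Twist2 at 357, Crabp1 at 873 and Cxcl14 at 629 CPM, and was led by histone genes such as Hist1h2ab (234 against 27.5), whose close copies make single values uncertain. Of the cells of subclusters 3 and 7, 126 and 39 came from library A and 47 and 20 from library B. They met the rule through Dpt, and held less Mfap5, Dpp4 and Clec3b than any other subcluster. Cd248, a label marker that the rule did not use, went the other way. It stood at 114 and 97.3 CPM in subclusters 3 and 7, above the 78.8 CPM of subcluster 5 and above the other Col3a1 cells of either library. The cells of subclusters 3 and 7 remain in every count over the 1000 cells, where fascia-type names the rule.

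Subcluster 4, of 156 cells, was led by genes of mitosis such as Plk1 (62.8 CPM against 6.82 in the rest) and Nusap1 (235 against 32.9), with Mki67 at 414 CPM, and kept Mfap5 at 225 CPM. Subcluster 6, of 63 cells, held Kcnj8 at 105 CPM, the growth factor Fgf10 at 65.7 CPM, and the heat shock gene Hspa1a at 493 against 118 CPM, with Dpt at 729 CPM. Subcluster 5, of 99 cells, was led by genes of cartilage, of bone and of neurons. Col2a1 stood at 2883 CPM against 140 in the rest, Acan at 430 against 18.5, Ibsp at 510 against 17.7 and Tubb3 at 166 against 6.65. But 5 cells held all UMIs of Sncg there, 97.0% of those of Ibsp and 83.6% of those of Tubb3. For Col2a1 and Acan 5 cells held 38.9% each. The median depth in subclusters 4, 5 and 7 was 16638.5, 16314 and 17397 UMIs, against 12542.5 in subcluster 1.

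**Figure D4:**
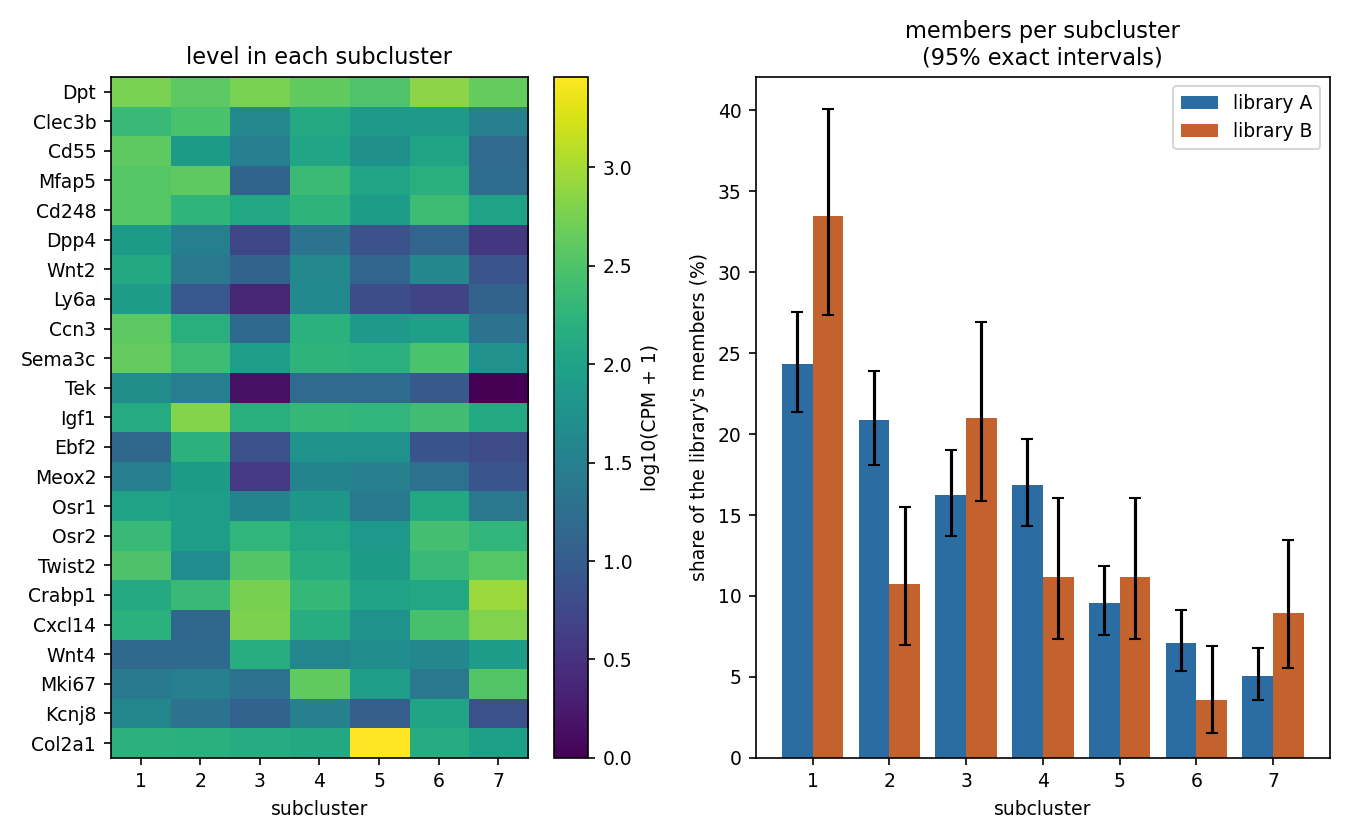
Left, level of 23 genes (rows, log10 of CPM + 1) in the 7 subclusters; right, share of each library's fascia-type cells in each subcluster with 95% exact intervals. Mfap5 is high in subclusters 1 and 2 and low in 3 and 7. Dpp4 is highest in subcluster 1, at 75.8 CPM against 29.9 CPM in subcluster 2, and lowest in 3 and 7. Subcluster 2 holds 20.9% of the cells of library A and 10.7% of library B.

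The libraries filled the subclusters unequally. Subcluster 2 held 20.9% of the fascia-type cells of library A (18.1 to 23.9) and 10.7% of those of library B (6.99 to 15.5). Subcluster 1 held 24.4% (21.4 to 27.5) and 33.5% (27.3 to 40.1), intervals that overlap slightly. For the other 5 subclusters the intervals also overlapped. Since genes that differ between the libraries took part in the clustering, these shares are a description. Clec3b had log2 ratios of -0.89, -0.81 and -1.28 in subclusters 1, 4 and 5, and of -0.01 (-0.38 to 0.34) in subcluster 2. It was higher in library B in subclusters 3 (0.69, 0.06 to 1.31) and 6 (1.26, 0.32 to 2.14). Cd55 was higher in library B in subclusters 1, 4 and 5, and elsewhere its interval included 0. The part of the subcluster shares in these ratios was not tested.

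Between the libraries, 49 of 6978 genes (0.702%) were more than 2-fold higher in library B in the fascia-type cells and 53 (0.76%) more than 2-fold lower. The highest ratio was that of Ly6a (chromosome 15, 74994877 to 74998031, minus strand), at 167 UMIs and 15.4 CPM in library A against 284 UMIs and 76.6 CPM in library B, a log2 ratio of 2.32 (2.04 to 2.60). It was found in 10.6% of the cells of library A and 29.9% of those of library B, and after thinning to 2000 UMIs in 2.06% (1.18 to 3.33) and 10.7% (6.99 to 15.5). Within subcluster 1 it stood at 39.99 and 154 CPM, a log2 ratio of 1.95 (1.58 to 2.32), and in subcluster 4 the ratio was 3.26 (2.72 to 3.82). Subcluster 2 held 17 UMIs in library A and 0 in the 24 cells of library B, and with an upper limit of 0.87 its interval includes 0. In subcluster 7 there were 0 UMIs in library A and 13 in library B, with a lower limit of 2.10. In subcluster 5 the ratio was 0.14, with an interval that includes 0 (-2.41 to 2.20). The part of the subcluster shares in the Ly6a ratio was not tested. In endothelial-type cells, the thinned share was 1.17% and 0.547%.

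Further genes were higher in library B (headed MKO/tdT, titled f/w). Ifitm1, an interferon-induced membrane protein, stood at 37.6 CPM in library A and 167 CPM in library B. Igfbp2, an Igf carrier, stood at 84.5 and 312 CPM, and Hmox1, haem oxygenase, at 38.7 and 133 CPM. The smooth muscle genes Acta2 (71.0 and 204 CPM) and Tagln (69.9 and 183 CPM) were higher in library B in the fascia-type cells, while in the other Col3a1 cells Acta2 stood at 105 and 102 and Tagln at 98.7 and 76.6 CPM. Tendon-type cells held Acta2 at 59.7 and 170 CPM and Tagln at 59.5 and 188 CPM, so the higher level in library B was not particular to the fascia-type cells. Cxcl14 stood at 168 and 422 CPM, and within subclusters 1 and 3 its log2 ratio was 1.39 (1.15 to 1.64) and 0.74 (0.58 to 0.90). In subcluster 5 it went the other way, at 62.4 and 50.5 CPM, a log2 ratio of -0.31 with an interval that includes 0 (-1.01 to 0.35). Of the 49 genes, 45 were also higher in library B in the other Col3a1 cells, and 14 of them by more than 2-fold, Hmox1 (27.6 and 89.7 CPM) and Cwc22 (20.8 and 67.1 CPM) among these. Of the 53 lower genes, 39 were also lower in library B in the other Col3a1 cells, 11 of them by more than 2-fold. Over all 6978 genes, 73.8% of those higher in library B by any size, and 65.5% of those lower, had the same direction in the other Col3a1 cells. The share of all genes past 2-fold in the other Col3a1 cells is not given here. The counts of 14 and 11 thus have no background beside them, and nothing is read from them.

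**Figure D5:**
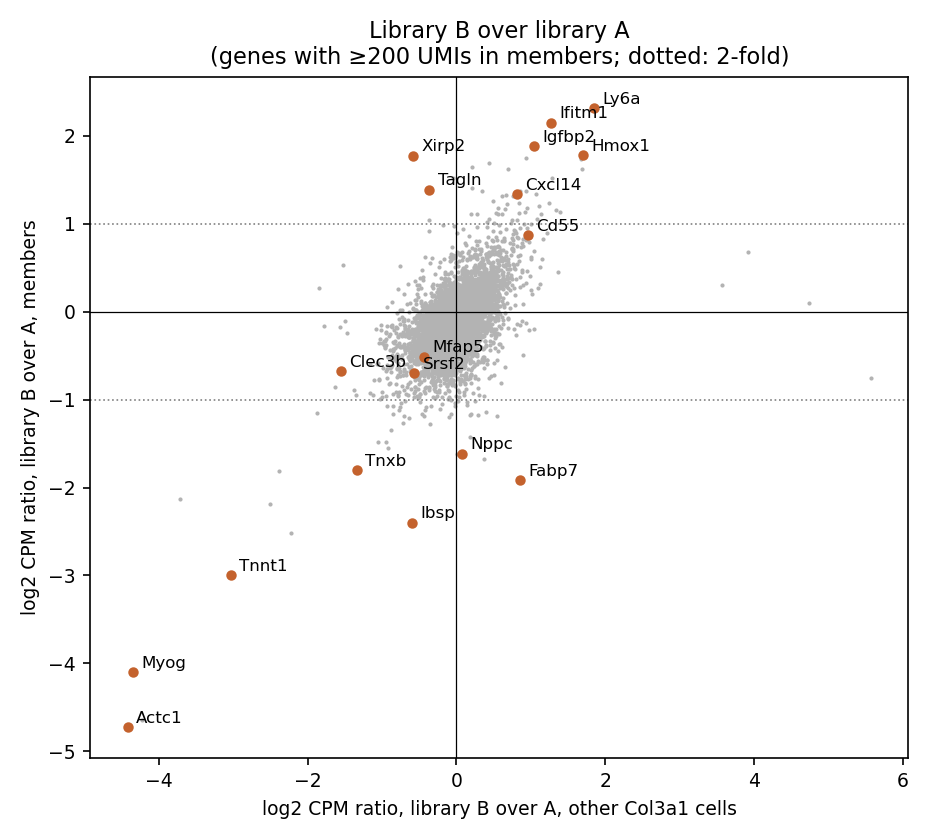
Each point is 1 of the genes with at least 200 UMIs, with the log2 CPM ratio of library B over library A in the other Col3a1 cells (x) and in the fascia-type cells (members, y); dotted lines mark 2-fold. Ly6a and Hmox1 are higher in library B in both, Tagln in the fascia-type but not in the other Col3a1 cells, and the muscle genes Actc1 and Myog are lower in both.

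Among genes with at least 200 UMIs, the 5 with the lowest ratios were muscle genes (Actc1, Ttn, Myog, Tnnt1 and Mylpf). Actc1, cardiac actin, stood at 78.4 CPM in library A and 2.97 CPM in library B, Myog, myogenin, at 27.8 and 1.62, and Ttn, titin, at 33.8 and 1.35 CPM. The 10 genes of the myogenic list summed to 205 CPM in the fascia-type cells of library A and 408 CPM in its other Col3a1 cells, beside 15.4 and 35.2 CPM in library B. After thinning, Actc1 was found in 5.93% of the fascia-type cells of library A (4.37 to 7.83) and 9.64% of its erythroid-type cells (4.25 to 18.1), which should lack it, at median depths of 12487.5 and 11055 UMIs. In library A the share in the fascia-type cells was thus no higher than in these cells that should lack the gene. In library B Actc1 was found in 1.34% of the fascia-type cells (0.277 to 3.86). Of the erythroid-type cells of library B it was found in 0 of 100, where the exact interval reaches 3.62%. Actc1 was uneven over the subclusters of library A, at 212 CPM in subcluster 4 and 25.8 to 63.7 CPM in the others, and 10 fascia-type cells of library A held at least 50 myogenic UMIs. Myf5, the gene that drives Cre, stood at 3.49 and 0.270 CPM. The part of free muscle RNA in these ratios was not tested.

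Among genes that muscle does not define, Tnxb, which stabilises collagen, stood at 19.8 CPM in library A and 5.67 in library B. Its log2 ratio was -1.80 (-2.52 to -1.15) in all fascia-type cells and -2.86 (-5.92 to -0.97) within subcluster 2, where 109 and 2 UMIs were counted. In subcluster 1 Tnxb stood at 13.5 and 10.1 CPM, a log2 ratio of -0.42 with an interval that includes 0 (-1.51 to 0.58), and in subcluster 5 at 12.3 and 12.1 CPM. In subcluster 4 it stood at 22.4 and 2.29 CPM, from 54 and 1 UMIs, a log2 ratio of -3.29 (-8.62 to -0.75). Subcluster 2, where Tnxb was highest, held 20.9% of the cells of library A and 10.7% of those of library B, and the part of these shares in the Tnxb ratio was not tested. Nppc, C-type natriuretic peptide, stood at 116 and 37.8 CPM, with 19.1 and 20.1 in the other Col3a1 cells. Ccl2, a monocyte chemokine, stood at 134 and 59.4 CPM, and Thbs4 at 24.0 and 11.1. Of the 22 fascia and progenitor genes tested, 1 was higher in library B (Ly6a) and 2 lower (Tnxb and Smpd3), with a list median of 0.04 beside -0.12 over all genes. The shares over all genes were 0.702% past 2-fold higher in library B and 0.76% lower. Of the 4 matrix lists, the elastic fibre genes had a median of 0.05 with none past 2-fold, the collagens -0.17 with 1 higher in library B (Col8a1, log2 ratio 1.37), the small leucine-rich proteoglycans 0.21 with 1 higher (Fmod, 1.02), and the other matrix proteins -0.21 with 2 lower (Tnxb and Thbs4). The immediate early and stress list had a median of 0.58 with 1 of 15 genes past 2-fold, Ier3, at 414 and 911 CPM. Jun stood at 3384 and 5804 CPM in the fascia-type cells and at 1898 and 3126 in the other Col3a1 cells.

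Markers of other cells were also measured in the fascia-type cells. The erythroid list summed to 1085 CPM in library A and 1689 in library B, its most abundant gene, Hbb-bs, at 534 and 927 CPM, and 5 cells held 92.2% of the Hbb-bs UMIs. The mast cell list summed to 125 and 99.6 CPM in the fascia-type cells and to 13.7 and 284 CPM in the other Col3a1 cells, and 5 cells held 92.8% of the Cma1 UMIs in the former. The neuron list summed to 97.3 and 173 CPM, the leukocyte list to 36.2 and 54.2, the keratinocyte list to 27.1 and 31.8 and the Schwann cell list to 29.6 and 11.1. Ptprc, a leukocyte surface protein, was at 1.01 and 0.270 CPM. In all, 51 cells of library A and 14 of library B held many UMIs of a mast, erythroid, leukocyte, neuron, chondrocyte or myogenic list. Without them 6 values of named genes turned direction, 4 of which concern Cma1, Cpa3, Hdc and Srgn, genes of mast cells and leukocytes, so no difference is read from these.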

How the data were processed

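Per the labels and the study's methods, cells were sorted for tdT and sequenced with droplet 3′ chemistry. The deposited matrix holds raw UMI counts of 32285 genes in 27766 barcodes; its header names Cell Ranger 5.0.0, and the submitters' processing notes list Cell Ranger 3.1.0, STAR, Seurat 3.1.1 and mm10. The authors aggregated both libraries with reads down-sampled to like depth, which lowers the UMIs of the deeper library. Barcode suffixes were tied to libraries by their numbers of barcodes. Cells needed at least 1000 UMIs and at most 10% mitochondrial UMIs (12144 in library A, median 10957 UMIs, and 9942 in library B, median 9863); no doublet caller was run. UMIs were summed per population and scaled to CPM, with exact Poisson or conditional binomial 95% intervals, which cover counting error only. Fold counts used genes with at least 200 UMIs over the fascia-type cells. Cells were clustered with leidenalg 0.10.2 (resolution 0.6) and intervals computed with scipy 1.17.1. Named genes were Srsf2, 36 gene lists, the 15 highest and lowest library ratios, the 20 highest and 10 lowest ratios over other Col3a1 cells and 8 leading genes per subcluster. The members and lists were chosen with earlier results of these data known. Interval code was tested on simulated data.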

Additional observations from a re-analysis of the deposited data

Results flagged for a closer look

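Fabp7, a fatty acid binding protein, was lower in library B in the fascia-type cells, with a log2 ratio of -1.91 (232 UMIs in library A and 21 in library B), and higher in library B in the other Col3a1 cells, at 0.86. With a sum of at least 3 in place of 5, the ratio in the fascia-type cells was 0.074, the opposite direction. The difference between the populations was not tested, and 5 cells held 58.5% of the Fabp7 UMIs of the fascia-type cells.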

How the results depend on the processing

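The fascia-type share in libraries A and B was 9.35% and 3.56% with a sum of at least 3, 3.86% and 1.37% with at least 8, 5.29% and 1.76% with thresholds per 10000 UMIs, 6.90% and 2.61% from 5000 UMIs, and 2.99% and 1.06% after thinning to 5000. A mitochondrial limit of 5% gave 7.46% in library A. Col3a1 cells as denominator gave 11.04% and 5.47% (log2 ratio -1.01), cells with at most 1 myogenic UMI 7.76% in library A (-1.76), and also asking for Mfap5 and Cd248, chosen after seeing the data, 3.22% and 0.935% (-1.78). Against 49 higher and 53 lower genes in library B, a 50-UMI minimum gave 166 and 258 and a 1.5-fold limit 193 and 435, and a sum of at least 3 gave 76 higher. Against 181 higher and 37 lower than other Col3a1 cells, 50 UMIs gave 281 and 105, and a sum of at least 8 gave 22 lower. Without thinning, a UMI was found in 54.6% and 49.6% for Mfap5, 80.7% and 75.0% for Cd248, 35.8% and 31.3% for Mki67, and 10.6% and 29.9% for Ly6a. Resolution 0.3 gave 4 subclusters and resolution 1.0 gave 10, against 7.

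Of 11486 values of 397 named genes over 10 settings, 9360 moved by less than their counting interval, 2103 by more and 23 turned sign. With a sum of at least 3 these were the library ratios of Fabp7 (0.074) and Ibsp (0.14) and, over other cells in library B, Cma1 (1.09) and Kit (0.17). With at least 8 they were the library ratios of Rgs5 (-1.63), Sncg (-2.73), Stmn3 (-1.06) and Tubb3 (-0.76), and Sfrp4 over other cells in library B (-0.28). Per 10000 UMIs they were the library ratios of Aldh1a2 (0.36), Krt19 (0.27) and Matn1 (0.14), Myod1 over other cells in library B (0.070), and, in library A, Cma1 (-3.01), Cpa3 (-3.90), Hdc (-2.25) and Srgn (-1.57). Without the mixed cells, a setting chosen after seeing the data, they were Cma1 (-0.90), Cpa3 (-1.97), Hdc (-1.33) and Srgn (-0.84) in library A, and the library ratios of Hoxb8 (-0.16) and Matn1 (0.35). The cause was not tested. The median library ratio of all genes was -0.12, and -0.14 to -0.09 over the settings. No paired analysis was possible because each genotype had 1 library and no test was made.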
